A study of Mus musculus with 6 samples.

Results

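The genes described here encode the subunits of the mitochondrial respiratory chain and of ATP synthase, measured in fetal mouse livers with and without hepatocyte nuclear factor 4 (HNF4), a nuclear receptor transcription factor of hepatocytes. A probe set, the unit of the array, was taken as a member where its only annotated gene symbol begins with Nduf, Uqcr or Atp5, begins with Cox followed by a digit of 4 to 8, or is Sdha, Sdhb, Sdhc, Sdhd or Cycs. This rule used no measured value and found 183 probe sets of 91 genes, among 18193 genes that had a probe set of their own. Of the genes, 39 were read by 1 probe set and 52 by several, up to 6, and each gene was represented by its brightest one. The members comprise 44 genes of complex I and its assembly factors, 4 of complex II, 8 of complex III, 1 for cytochrome c, 17 of complex IV and 17 of complex V.

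Each of 3 null livers carried 2 floxed HNF4 alleles with the AlfpCre transgene (HNF4LoxP/LoxP AlfpCre), and each of 3 control livers carried 1 floxed allele with the same transgene (HNF4LoxP/+AlfpCre), all at E18.5. AlfpCre expresses Cre recombinase under albumin and alpha-fetoprotein regulatory elements, so that deletion is directed to cells of the hepatocyte lineage, while the blood-forming, endothelial and other cells of the fetal liver keep the gene. The controls carry Cre and are heterozygous for the floxed allele, and no liver without Cre is among the samples. Total RNA of each liver was hybridised to 1 array, and the values are intensities in arbitrary units. The labels give each liver a number, but do not say whether livers were littermates.

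The respiratory chain passes electrons taken from nutrients to oxygen and pumps protons across the inner mitochondrial membrane as it does so. Complex I oxidises NADH, complex II oxidises succinate and is also an enzyme of the citric acid cycle, complex III passes electrons from ubiquinol to cytochrome c, complex IV passes them to oxygen, and complex V, ATP synthase, lets the protons flow back and makes ATP. Most subunits are encoded in the nucleus, and a small set of core subunits is encoded in mitochondrial DNA. Hepatocytes are rich in mitochondria and use the chain to drive gluconeogenesis, urea synthesis and the oxidation of fatty acids, which becomes a main source of energy after birth.

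The arrays had median intensities of 91.8 to 99.5, and their log2 medians differed by at most 0.0877. Mean intensities ran from 225.5 to 236.6 in the null livers and from 248.6 to 259.8 in the controls. The HNF4 gene itself, Hnf4a, was measured by 4 probe sets, and its brightest read 1778, 1562 and 2778 in the null livers against 2607, 2817 and 2877 in the controls (log2 change -0.48, adjusted p = 0.194); 2 of the other 3 probe sets passed the test as lower (-0.69, adjusted p = 0.0434, and -0.55, adjusted p = 0.0488). The exons these probe sets read are not known here, so they may lie outside the deleted part. Of 11 hepatocyte markers, 8 were lower in the null livers, and their summed intensity was 51880 to 57490 in null livers and 87290 to 91290 in controls. Of 12 macrophage markers 3 were higher. None of 13 erythroid markers passed the test in either direction, with 11 of the 13 changes positive and a median of 0.25. Stellate and mesenchymal markers (median 0.40, 10 of 11 changes positive) and proliferation markers (median 0.31, 12 of 12 positive) also had 0 calls. Neutrophil markers had 0 calls and a median of -0.16, and 1 of 12 muscle markers was lower, with a median of -0.07. Markers of cell types outside the hepatocyte lineage were lower as well: 4 of 7 megakaryocyte markers, with a median of -0.61 and a summed intensity of 3869 to 4459 in null livers and 5536 to 7708 in controls, and 3 of 10 endothelial markers, with a median of -0.33 and a summed intensity of 1788 to 2174 in null livers and 2407 to 2692 in controls. In whole-liver RNA, fewer cells of a type and less RNA per cell cannot be told apart. The array of Null_61 and that of Control_8 stood apart from the other 4 in the probe set for the 5′ end of the 18S ribosomal RNA (33.5 in Null_61 and 42.1 in Control_8, 449.0 to 616.5 in the others), and these livers also bear low title numbers.

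Calls among the genes of the chain were all in the direction of lower intensity in the null livers, and most genes were not called. Of the 91 genes, 14 were lower in the null livers at an adjusted p under 0.05 and 0 were higher, where the background over all genes was 7.85% lower and 1.56% higher. The 14 genes make up 15.4% of the members, close to the 17.6% called lower among the 977 genes of all kinds that lay in the members' interquartile range of intensity, so the count of calls is not a result about the members; among the genes above the median intensity of probe sets 10.1% were lower. In all, 49 genes (53.8%) had all 3 null livers below all 3 controls, against 17.9% of all genes and 29.8% of the genes of like intensity, and 3 (3.3%) had all null livers above, against 13.2% of all genes. The log2 change, null over control, was negative for 75 genes and positive for 16, with a median of -0.24 (quartiles -0.36 and -0.08), beside 0.01 over all genes and -0.08 over the genes of like intensity. At an unadjusted p under 0.05, 41 members were lower and 2 were higher, where 15.2% of all genes were lower and 9.1% higher.

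These counts depended on how the arrays were scaled. With quantile normalization, which forces the arrays to share 1 distribution, the median over the members was -0.03. That of all genes was 0.06 and that of the genes of like intensity was 0.15. Sdhb and Sdhd were then the only members called, 2.2% of the members against 6.57% of all genes called lower. With the run of title numbers (Null_61 and Control_8 against the other 4 livers) as a block, 28 members were lower, including the 14. The background over all genes was then 11.1%, and the share called among the genes of like intensity was not computed. Within the 4 livers of high number the median over members was -0.20 with 72 of 91 negative, and between Null_61 and Control_8 it was -0.30 with 79 negative. The part of the changes of cell type and proliferation markers, in either direction, and of the lower mean intensity in these results was not tested.

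**Figure D1:**
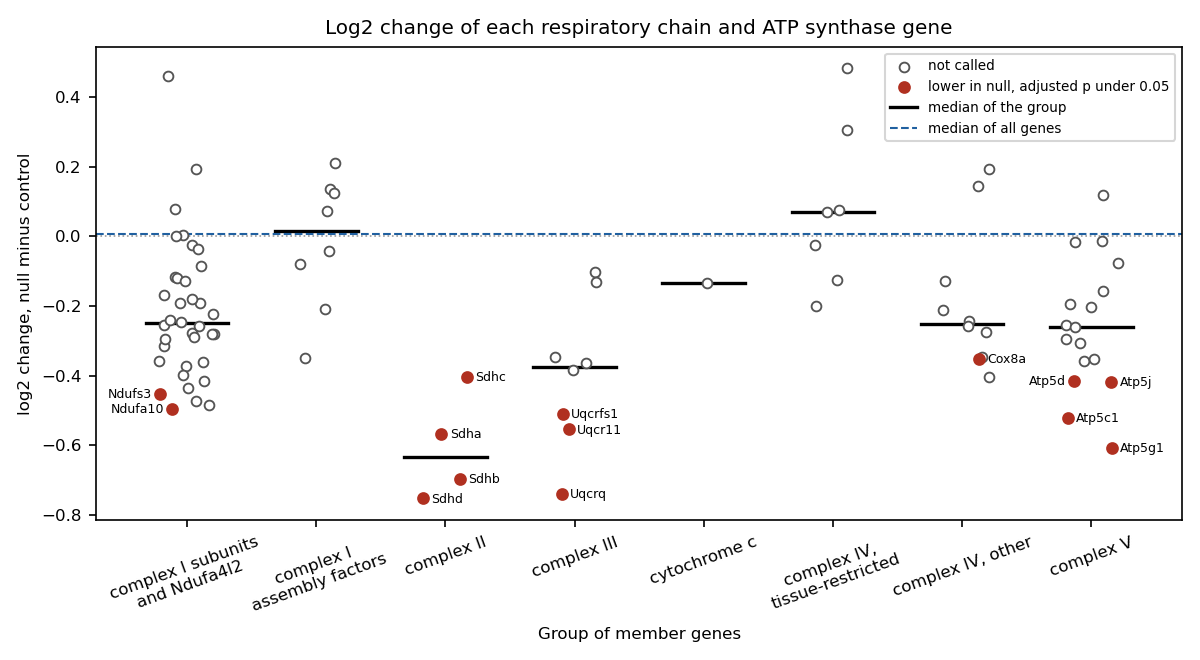
Log2 change (null minus control, vertical axis) of the gene of each circle, grouped by complex along the horizontal axis; filled circles passed an adjusted p of 0.05, black bars are group medians and the dashed line is the median of all genes. All 4 complex II genes are filled, and their median of -0.63 lies below that of every other group.

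Complex II, succinate dehydrogenase, was lower in the null livers in all of its 4 genes, with a median log2 change of -0.63. Counts by complex and subgroup, here and below, stand beside the following background. Over all genes 7.85% were called lower and 17.9% had all null livers below all controls. Over the genes of like intensity these shares were 17.6% and 29.8%. Sdhd, a membrane anchor subunit, read 1070.1, 1067 and 991 in the null livers, against 1808, 1625 and 1909 in the controls. Sdhb, the iron-sulfur subunit, read 1006, 1119 and 947 in the null livers, against 1705, 1671 and 1650.2 in the controls. In both genes the highest null liver lay well under the lowest control. Sdhd averaged 1043 ± 45 in null livers and 1781 ± 144 in controls (SD, n = 3 each), 1.68-fold lower (log2 change -0.75 ± 0.10 SE, adjusted p = 0.00266), and Sdhb averaged 1024 ± 87.4 in null livers and 1676 ± 27.9 in controls, 1.62-fold lower (-0.70 ± 0.10, adjusted p = 0.00372).

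Sdha, the flavoprotein that oxidises succinate, read 935, 845 and 865 in the null livers, against 1366, 1299 and 1298 in the controls (-0.57 ± 0.10, adjusted p = 0.00936). Sdhc, the other membrane anchor, read 1212, 1184 and 1270.0 in the null livers, against 1696, 1563 and 1624 in the controls (-0.40 ± 0.10, adjusted p = 0.0391). None of the 4 genes had overlapping groups, and the SDs of null livers were small beside the gaps between the groups. The second brightest of the 4 probe sets of Sdha called the gene as well (-0.50, adjusted p = 0.0215). Its remaining probe sets were dim and changed by 0.08 and 0.14, with overlapping groups and no call. The second probe set of Sdhc was below in all null livers without passing the test (-0.29, adjusted p = 0.182). The dimmer probe set of Sdhd, by contrast, averaged 773.7 in null livers and 773.8 in controls (-0.03, adjusted p = 0.949), so the change of Sdhd was seen in 1 of its 2 probe sets. The complex II median was -0.63 within the 4 livers of high number and -0.64 between Null_61 and Control_8, and it was -0.41 with quantile normalization. With the mean over each gene's probe sets it was -0.37, and Sdha (-0.21, adjusted p = 0.177) and Sdhd (-0.39, adjusted p = 0.08) were then not called.

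**Figure D2:**
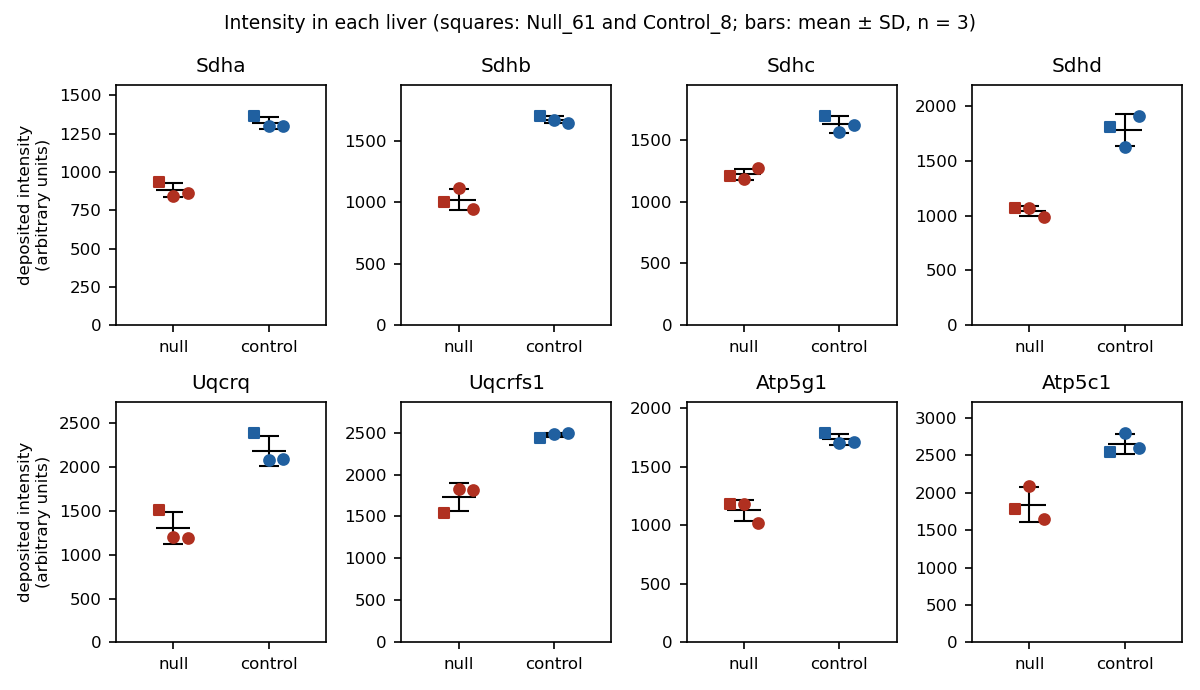
Deposited intensity (arbitrary units, vertical axis from 0) of 8 genes in each null and control liver; squares are Null_61 and Control_8, and bars are the mean ± SD of 3 livers. In every panel the 3 null livers lie below the 3 controls, as with Sdhd at 991 to 1070.1 in null livers and 1625 to 1909 in controls.

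The 250 bases before the start are shown for Sdha, Sdhb and Sdhd, because complex II is the one complex whose genes were all lower. Sdhc had no sequence in the promoter set used, so the matches cover only part of the complex. A further reason is that nuclear genes of the chain are known targets of nuclear respiratory factor 1 (NRF1) and GABP (nuclear respiratory factor 2). The sequences are from RefSeq on GRCm38.p6, 5′ to 3′ on the strand of the gene: Sdha at chr13:74350241-74350490 on the minus strand, Sdhb at chr4:140961021-140961270 on the plus strand and Sdhd at chr9:50603850-50604099 on the minus strand. Capitals mark letters that match an NRF1 motif (GCGC, then A, then any base, then GCGC) or a GABP motif (CCGGAAG), on either strand.
Sdha: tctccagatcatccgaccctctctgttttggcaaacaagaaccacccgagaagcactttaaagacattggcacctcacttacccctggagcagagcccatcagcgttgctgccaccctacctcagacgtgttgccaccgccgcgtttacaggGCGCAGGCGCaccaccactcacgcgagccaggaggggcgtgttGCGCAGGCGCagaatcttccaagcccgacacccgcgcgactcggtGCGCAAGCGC
Sdhb: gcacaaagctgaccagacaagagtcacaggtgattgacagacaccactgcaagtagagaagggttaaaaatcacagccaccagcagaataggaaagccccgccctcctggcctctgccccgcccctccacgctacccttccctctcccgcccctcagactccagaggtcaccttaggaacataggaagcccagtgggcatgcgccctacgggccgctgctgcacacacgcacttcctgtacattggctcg
Sdhd: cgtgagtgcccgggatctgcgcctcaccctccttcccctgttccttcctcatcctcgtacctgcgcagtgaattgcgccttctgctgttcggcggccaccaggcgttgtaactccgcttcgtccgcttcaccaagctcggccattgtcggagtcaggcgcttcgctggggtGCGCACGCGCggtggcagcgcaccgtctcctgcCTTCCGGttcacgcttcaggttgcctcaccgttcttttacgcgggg
Sdha has 3 matches, all to NRF1, while Sdhd has 1 match to NRF1 and 1 to GABP on the opposite strand, and Sdhb has none.

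Motifs were counted in this way for 75 of the 91 members and for 27025 genes of the same table, a gene being counted where any of its listed starts has a match within 250 bases. The NRF1 motif was found in 12 members (16%), against 4.23% of all genes, and the GABP motif in 14 members (18.7%), against 7.83%. The YY1 motif AANATGGCG was found in 3 members (4%), against 1.29%, and the motif TCAAGGTCA of the oestrogen-related receptors in Atp5g3 alone (1.33%), against 0.422%. An HNF4 motif, CAAAGTNCA, was found in 0 of the 75 members, against 1.4% of all genes. At so low a share over all genes, 0 of 75 is not a result about the members and does not show that HNF4 sites are absent. Of the 12 genes with a window among the 14 called lower, 3 held the NRF1 motif and 4 the GABP motif. A match describes letters, not a bound site.

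Complex III was lower in 3 of its 8 genes (37.5%, against 17.6% of the genes of like intensity). The median was -0.37, and all 8 changes were negative. Uqcrq, a small subunit, read 1515, 1207 and 1187 in the null livers, against 2388, 2082 and 2089.8 in the controls, 1.67-fold lower (log2 change -0.74 ± 0.12 SE, adjusted p = 0.0076). Uqcrfs1, the Rieske iron-sulfur protein that takes electrons from ubiquinol, read 1546, 1833 and 1820.1 in the null livers, against 2438, 2482 and 2493 in the controls, 1.42-fold lower (-0.51 ± 0.10, adjusted p = 0.0183). Both genes had a wide gap between the groups, and the controls of Uqcrfs1 lay within a narrow range. Uqcr11, another small subunit, read 1101, 979 and 800.2 in the null livers, against 1523, 1352 and 1370.3 in the controls (-0.55 ± 0.13, adjusted p = 0.042).

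The brightest gene of complex III, Uqcrb, which encodes a subunit near the ubiquinone site, read 3844, 4619 and 5067 in the null livers, against 5782, 5920.1 and 5865 in the controls, and did not pass the test (-0.38, adjusted p = 0.0785). The core proteins Uqcrc1 (-0.34, adjusted p = 0.167) and Uqcrc2 (-0.36, adjusted p = 0.0867) likewise did not pass. Uqcrh and Uqcr10 had the changes nearest to 0, -0.13 and -0.10. In 6 of the 8 genes all null livers lay below all controls. The 3 other probe sets of Uqcrq were dim, at group means of 74.6 to 164.8, and changed by -0.27, 0.00 and 0.39, so that its call came from its brightest probe set; with the mean over its probe sets it was not called (-0.15, adjusted p = 0.336). With quantile normalization the median of complex III was -0.16, with no gene called.

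Cyc1, the haem subunit of complex III whose symbol the rule does not take, had a log2 change of -0.36 (adjusted p = 0.0924). Cycs, the cytochrome c that carries electrons from complex III to complex IV, averaged 2572 in null livers and 2826 in controls (-0.13 ± 0.10, adjusted p = 0.506). Its groups overlapped, at 2371, 2686 and 2657 in null livers and 2750.0, 3103 and 2626 in controls, and its change was 0.09 with quantile normalization.

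Complex V, ATP synthase, was lower in 4 of 17 genes, with a median of -0.26. That is 23.5%, near the 17.6% among the genes of like intensity, so the count of calls is not a result about complex V. In 12 genes (70.6%, against 29.8% of the genes of like intensity) all null livers lay below all controls. Atp5g1, one of the genes for subunit c of the rotating membrane ring, read 1179.9, 1179.6 and 1023 in the null livers, against 1786, 1702 and 1707 in the controls, 1.52-fold lower (-0.61 ± 0.10, adjusted p = 0.0077). Its paralogues Atp5g2 and Atp5g3, which encode the same mature protein, did not pass the test. Atp5g2 averaged 1561 in null livers and 1788 in controls (-0.20, adjusted p = 0.313), and Atp5g3 averaged 4480.0 in null livers and 5476 in controls (-0.31, adjusted p = 0.273). In all 3 of these genes the null livers lay below the controls without overlap, and whether the paralogues differed in their change was not tested.

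In the F1 head, the catalytic part of ATP synthase, all 5 measured genes had every null liver below every control. Atp5c1, the central gamma shaft, read 1782, 2095 and 1651 in the null livers, against 2543, 2796 and 2601 in the controls (-0.52 ± 0.11, adjusted p = 0.0265), and Atp5d, the delta subunit, averaged 1932 ± 163 in null livers and 2584 ± 123 in controls (-0.42 ± 0.10, adjusted p = 0.0443). The catalytic beta subunit gene Atp5b read 4321, 4069 and 3433 in the null livers, against 5222, 4926 and 4949 in the controls, and missed the threshold (-0.36, adjusted p = 0.0836). Atp5a1 (-0.26, adjusted p = 0.209) and Atp5e (-0.26, adjusted p = 0.232) were smaller changes. The call of Atp5c1 came from a probe set that may also read other transcripts by its ID, and its other probe set changed by 0.09 (adjusted p = 0.701).

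Among the 12 genes of the stalk and membrane part the changes ran from near 0 to that of Atp5g1, with a median of -0.20. Atp5j, coupling factor 6 of the peripheral stalk, averaged 2069 ± 210.4 in null livers and 2763 ± 108.4 in controls (-0.42 ± 0.10, adjusted p = 0.0498), at the edge of the threshold. Atp5l, Atp5pb and Atp5j2 had changes between -0.08 and -0.01 on their brightest probe sets. Atp5k was the only complex V gene with a positive change on its brightest probe set (0.12, adjusted p = 0.765). Its other probe sets changed by 0.02 and -0.29, the latter with all null livers below all controls. The direction of Atp5k therefore depends on the probe set. With quantile normalization the median of complex V was -0.05. Atpif1, the inhibitor that binds the F1 head, was not called (0.04).

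Complex I had the most members and few calls. Of 44 genes 2 were lower (4.55%, against 7.85% of all genes), and the median change was -0.22, but 0.00 with quantile normalization. Ndufs3, a core subunit of the arm that holds the iron-sulfur clusters, read 1101, 991 and 1038 in the null livers, against 1463, 1416 and 1435 in the controls (-0.45 ± 0.10, adjusted p = 0.0259). Ndufa10, an accessory subunit, read 598, 616 and 557 in the null livers, against 791, 935 and 814 in the controls (-0.50 ± 0.11, adjusted p = 0.0335). In both, the null livers spread less than 10% around their mean and lay apart from the controls.

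The core subunits, which carry out the redox chemistry, numbered 6. Of these, 5 had all null livers below all controls: Ndufs3, Ndufs1 (-0.36), Ndufv1 (-0.28), Ndufs7 (-0.26) and Ndufv2 (-0.24). The other one, Ndufs8, read 2232, 2068 and 2006 in the null livers, against 1863, 1792 and 1842 in the controls on its brightest probe set (0.19, adjusted p = 0.278), while its 5 other probe sets changed by -0.33 to -0.15, none past the threshold. Its direction therefore depends on the probe set. Among the 29 accessory subunits 13 had all null livers below all controls (44.8%, against 29.8% of the genes of like intensity). Their median was -0.24. Ndufb9 (-0.48, adjusted p = 0.0733), Ndufa12 (-0.41, adjusted p = 0.0545) and Ndufa9 (-0.40, adjusted p = 0.0757) were close to the threshold, and a dimmer probe set of each of Ndufa12 (-0.66, adjusted p = 0.01) and Ndufb9 (-0.55) was called lower. A dim probe set of Ndufb9 changed by 0.68 (adjusted p = 0.127). The brightest genes of complex I, Ndufa1 (-0.31, adjusted p = 0.326) and Ndufb11 (-0.12, adjusted p = 0.65), were not called. Ndufb2 (-0.47, adjusted p = 0.129), Ndufab1 (-0.28), Ndufs4 (-0.26) and the dim Ndufb4 (0.08) were not called either. Other probe sets of Ndufab1 changed by 0.08, 0.22, 0.31 and 0.11, of Ndufs4 by -0.05, -0.24 and 0.43, and of Ndufb2 by -0.38 and 0.25. None of these was called, and the direction of Ndufab1, Ndufs4 and Ndufb2 depends on the probe set. Ndufa13, Ndufb3, Ndufa3 and Ndufb7 had changes of at most 0.04 in size.

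The 8 Ndufaf genes, whose products help to assemble complex I and are no part of it, had a median of 0.02 with 0 calls, and their intensities were low, at group means of 70.3 to 382.1. The dimmest, Ndufaf5, read 93.1, 84.5 and 80.4 in the null livers, against 78.3, 74.7 and 57.7 in the controls (0.21, adjusted p = 0.395), above in all null livers. For the 35 subunits without them and without Ndufa4l2 the median was -0.26, with 2 genes lower and 18 below in all null livers. Ndufa4, which the rule groups here by its symbol although its product is now held to be a subunit of complex IV, had a change of -0.37 (adjusted p = 0.0789). Its paralogue Ndufa4l2, a gene known to be induced by hypoxia, had the widest spread of the bright members. It read 667, 565 and 208 in the null livers, against 376, 244 and 308 in the controls (0.46 ± 0.36, adjusted p = 0.507). Null_61 and Null_1191 were above all controls and Null_1195 was below them all, and without Null_1195 it was the 1 member called higher.

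**Figure D3:**
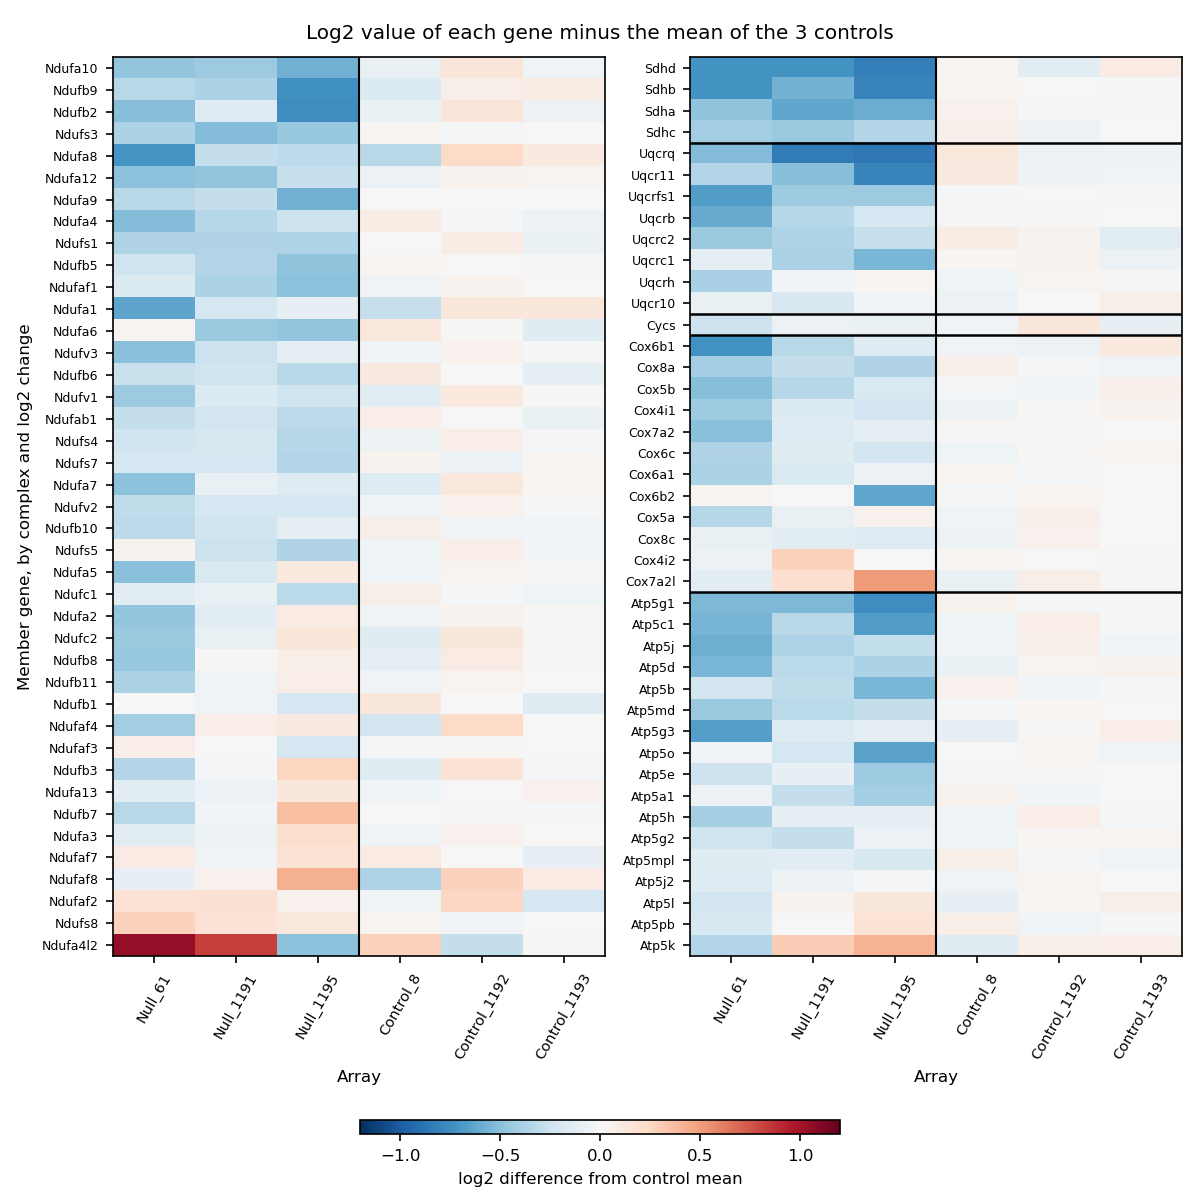
Log2 value of the 83 members whose group means both exceeded the array medians, minus the mean of the 3 controls, by liver (horizontal axis) and gene (vertical axis, by complex, then by change); blue is lower and red is higher. The complex II rows are blue in all 3 null livers, and Ndufa4l2 is red in Null_61 and Null_1191 and blue in Null_1195.

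Complex IV was lower in 1 of 17 genes (5.88%, against 7.85% of all genes), with a median of -0.13. Cox8a, the subunit VIII form found in most tissues, read 2399.6, 2603 and 2481 in the null livers, against 3332, 3145 and 3098 in the controls (-0.35 ± 0.09, adjusted p = 0.0494), and was called in 5 of 17 other settings. Cox4i1, which encodes the usual form of subunit IV, read 3281, 3924 and 3752 in the null livers, against 4241, 4457 and 4546 in the controls, with no overlap and no call (-0.27, adjusted p = 0.143). Cox6b1 had the largest fall in the fitted value without passing the test (-0.40, adjusted p = 0.149), with null livers at 3142, 4161 and 4698 and controls at 5079, 4984 and 5665. Cox5b was not called on its brightest probe set (-0.35, adjusted p = 0.0904). Another of its 6 probe sets was called lower (-0.36, adjusted p = 0.0346). The rest were not called and changed by -0.39 to 0.18. For Cox6b1 and Cox7a2 Null_61 was the lowest null liver by a wide margin.

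Several subunits of complex IV have a second gene used in other tissues, such as heart, muscle, lung or testis. The 7 such paralogues had a median of 0.07, against -0.25 over the 10 other genes. Of the paralogues, 4 had a group mean at or below the array medians. Of the 10 other genes, 7 had all null livers below all controls (70%, against 29.8% of the genes of like intensity). The pairs read -0.27 for Cox4i1 and 0.07 for Cox4i2, -0.21 for Cox6a1 and 0.08 for Cox6a2, -0.40 for Cox6b1 and -0.20 for Cox6b2, and -0.26 for Cox7a2 and -0.03 for Cox7a1. Cox8c changed by -0.13 and Cox7b2, at group means of 28.4 in null livers and 10.9 in controls, by 0.48. No paralogue passed the test. Cox8b was above in all null livers at a dim 96.3, 78.4 and 78.2, against 61.4, 59.7 and 64.4 in the controls (0.31, adjusted p = 0.193). Cox7c was read by dim probe sets alone, and Cox7a2l, a factor of supercomplexes, had a change of 0.19 on its brightest probe set. The other probe sets of Cox7a2l changed by -0.23 and -0.36, neither called, so its direction depends on the probe set. With quantile normalization the median of complex IV was -0.01.

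Across livers, the members' median, set against the control mean, was lowest in Null_61 (-0.33), followed by Null_1195 (-0.20) and Null_1191 (-0.18), while the controls lay at -0.02 (Control_8), 0.02 (Control_1192) and 0.00 (Control_1193). Each null liver was thus lower than each control in this summary, and Null_61 was lowest. The summed intensity of the members was 129100, 143990 and 145830 in the null livers, against 164060, 169110 and 167030 in the controls. As a share of the summed intensity of all genes it was 2.39%, 2.62% and 2.54% in the null livers, against 2.67%, 2.62% and 2.64% in the controls, so Null_1191 lay within 0.1 percentage points of the controls on that scale. Without Null_61 the median of the members was -0.18 and 18 members were lower.

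**Figure D4:**
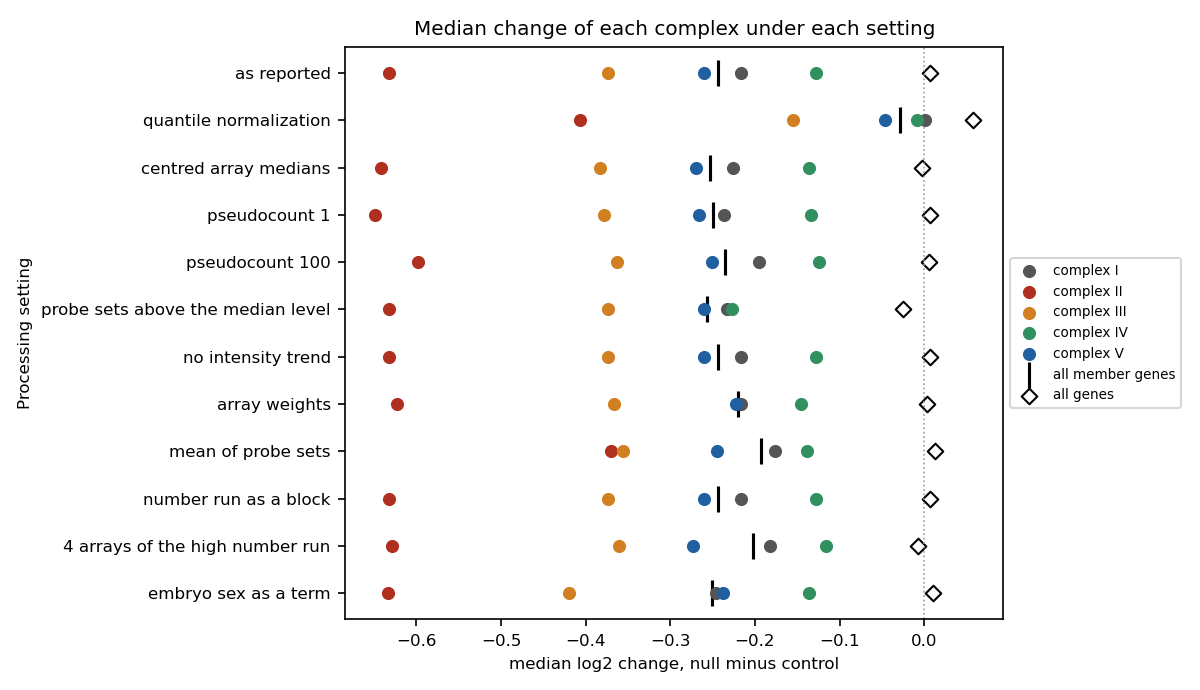
Median log2 change (null minus control, horizontal axis) of each complex, of all members (bars) and of all genes (diamonds) under each processing setting (vertical axis). Complex II is the lowest complex in every row. With quantile normalization every marker lies further right than as reported, at -0.41 for complex II and 0.00 for complex I. With the mean of probe sets complex II lies at -0.37.

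Counted by probe set, the calls were likewise all in the lower direction. Of the 183, 22 were lower and 0 higher, where 5.55% of all probe sets were lower and 1.46% higher. In 86 all null livers lay below all controls, where 13.8% of all probe sets did so. Both group means exceeded the array medians in 156 of the 183, and all 22 calls were among these. The shares over probe sets of like intensity were not computed, so these counts are not by themselves a result about the members. In 22 genes the probe sets differed in the sign of their change, and in 12 genes called and uncalled probe sets stood side by side. In all, 8 genes had a group mean at or below the array medians, and all 14 calls lay among the other 83.

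Single genes that work next to the chain were called lower, some with a larger change than any member. The lists they belong to are set beside the 7.85% called lower among all genes. Among the genes in the members' interquartile range of intensity the share was 17.6%, and no list was matched to genes of its own intensity. A share above 7.85% is therefore not by itself a result about a list. One list held other routes by which electrons reach ubiquinone, the genes of ubiquinone synthesis and the transhydrogenase gene Nnt. It had 7 of 19 genes lower (36.8%), 0 higher and a median of -0.27, or -0.26 with quantile normalization. Chdh, choline dehydrogenase, read 62, 68.6 and 62.1 in the null livers, against 708, 661 and 645 in the controls (-2.87, adjusted p = 1.13e-06). Etfdh, which passes electrons from fatty acid oxidation to ubiquinone, read 445, 462 and 412 in the null livers, against 1084, 1179 and 1171 in the controls (-1.32). Its electron donors Etfa (-0.90) and Etfb (-0.54), Coq2 (-0.97) and Coq9 (-0.70) of ubiquinone synthesis, and Nnt (-0.99), the transhydrogenase, were the others.

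In the citric acid cycle 3 of 13 genes were lower (23.1%), with a median of -0.24, or -0.04 with quantile normalization. All 3 encode subunits of succinyl-CoA synthetase, the enzyme that makes succinate, the substrate of complex II. Suclg1 read 545, 443 and 306 in the null livers, against 1108, 1106 and 1024 in the controls (-1.30, adjusted p = 0.00294), Suclg2 had a change of -1.04 (adjusted p = 0.000759) and Sucla2 of -0.48 (adjusted p = 0.0475). For Sucla2 the mean over its probe sets ended the call and turned the direction (0.24, adjusted p = 0.184). Around pyruvate dehydrogenase 3 of 11 genes were lower (27.3%), with a median of -0.17, or 0.05 with quantile normalization. They were the pyruvate carrier gene Mpc1, at 875, 1101 and 1049.7 in null livers against 2935, 3279 and 3422 in controls (-1.64), and the kinases Pdk4 (-1.18) and Pdk2 (-0.68).

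Of 38 assembly factors of the complexes 4 were lower (10.5%), with a median of -0.18, or -0.08 with quantile normalization. Lrpprc, which stabilises mitochondrial messenger RNAs, read 326, 337 and 347 in the null livers, against 719, 727 and 728 in the controls (-1.04, adjusted p = 0.000329). Sco2 (-0.83) and Coa6 (-0.78), which serve copper delivery to complex IV, and Sdhaf1 (-0.56), an assembly factor of complex II, were the other 3. The mitochondrially encoded complex I subunit ND5 read 3005, 2000 and 3803 in the null livers, against 6731, 5911 and 5328 in the controls (-1.06, adjusted p = 0.0167), the one subunit of mitochondrial DNA measured under the lists used.

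Among 24 regulators of mitochondrial biogenesis 2 were lower (8.33%), with a median of -0.07, or 0.04 with quantile normalization. Sirt3, a mitochondrial deacetylase, read 111, 91.3 and 93.3 in the null livers, against 491, 576 and 454 in the controls (-2.04, adjusted p = 2.37e-05), and the mitochondrial DNA polymerase gene Polg had a change of -0.66. The coactivator gene Ppargc1a (-0.07), Tfam (0.00), Nrf1 (0.41, adjusted p = 0.0845), Gabpa (-0.22) and Esrra (-0.27) did not pass the test. The mitochondrial ribosome had 3 of 76 genes lower (3.95%: Mrpl50, Mrpl48 and Mrps17) and a median of -0.14, or 0.02 with quantile normalization. Import and chaperones had 1 of 22 lower (4.55%: Trap1, -0.63) and a median of -0.17, or -0.01 with quantile normalization. ATP export and uncoupling had 1 of 10 lower (10%: Vdac3, -0.42) and a median of -0.04, or 0.01 with quantile normalization. The shares of assembly factors, biogenesis regulators, the ribosome, import and ATP export were thus near or under that of all genes. No gene of these lists was called higher.

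**Figure D5:**
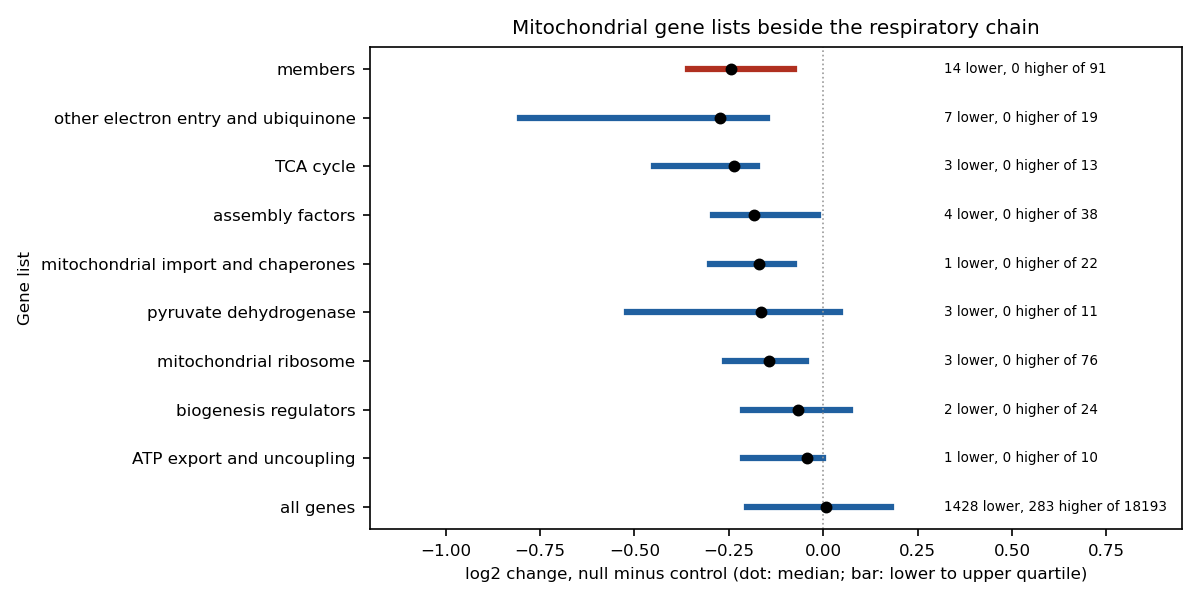
Median (dot) and quartiles (bar) of the log2 change (null minus control, horizontal axis) of the members, of mitochondrial gene lists and of all genes (vertical axis), with the numbers of genes lower and higher. The members have a median of -0.24 and the genes of other electron entry and ubiquinone -0.27, with a longer tail to the left, and all genes 0.01. The bars show the values before quantile normalization.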

How the data were processed

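Affymetrix arrays of 3 null and 3 control livers were used, as intensities on a linear scale that the authors deposited, some below 0. The sources used here do not give the software that made them or its scaling. Control probe sets (64 of 45101) were left out. Values were set to at least 0, a pseudocount of 32 was added, and log2 values of 45037 probe sets were fitted by limma (version 3.58.1, under R version 4.3.3; lmFit, eBayes with an intensity trend, Benjamini-Hochberg adjustment over all probe sets, threshold 0.05); a fold change is on this scale and understates that of dim genes. Probe sets took genes from the platform's annotation; 34945 had 1 symbol, and the brightest represented its gene. All 91 member symbols matched RefSeq names, from GRCm38.p6. The fit was tested on simulated data. Alternatives were quantile normalization, centred medians, other pseudocounts, a level filter, no trend, array weights, means over probe sets, the title-number run as a block or within the high run, embryo sex (read from Xist and Y-linked probe sets) as a term, and each liver left out. With 3 against 3 livers an exact permutation test of 1 value cannot go below p = 0.1, and the number of arrays limits the precision. The limma p-values weigh the difference between the groups against the spread between these livers, which eBayes moderates across probe sets. The rule for named genes took the complex II genes, Cycs, paralogue sets, the called members of each complex, up to 6 a direction, the 2 members of each complex at either end of level and of change, up to 10 members whose probe sets disagreed, and up to 3 called genes of each mitochondrial list. Other genes named were chosen after their values were seen: Atp5a1, Atp5j2, Atp5l, Ndufa3, Ndufa4, Ndufa9, Ndufa13, Ndufb3, Ndufb7, Ndufs1, Ndufs7, Ndufs8, Ndufv1, Ndufv2, Uqcrc2, Cyc1, Atpif1, Coq2, Coq9, Etfb, Nnt, Sdhaf1, Ppargc1a, Tfam, Nrf1, Gabpa and Esrra. Members and lists were chosen with earlier results of these data known.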

Additional observations from a re-analysis of the deposited data

How the results depend on the processing

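No paired analysis was possible because no replicate number in the labels is shared by a null and a control liver; the number run, which sets Null_61 and Control_8 apart from the other 4 livers, was used as a block of its own. Of the 14 member genes lower in null livers, Sdhb was called under all 17 other settings, Sdhd and Atp5g1 under 16, Uqcrq under 15, and Cox8a under 5, and all 14 kept a negative change in these. The member genes lower numbered 2 with quantile normalization, 6 without the intensity trend, 6 with embryo sex as a term, 25 with array weights, 28 with the number run as a block, 22 counted as probe sets, and 4 to 18 when 1 liver was left out (4 without Control_8 and without Control_1192, 5 without Control_1193, 7 without Null_1191); the member genes higher numbered 0 to 1. Members and all genes called lower were 2.2% and 6.57% with quantile normalization and 6.59% and 7.15% without the trend. They were 6.59% and 6.06% with sex as a term, 27.5% and 10.4% with array weights and 30.8% and 11.1% with the block. Without Control_8 they were 4.4% and 5.89%, without Control_1192 4.4% and 4.98%, and without Control_1193 5.49% and 5.4%. Without Null_61 they were 19.8% and 9.28%, without Null_1191 7.69% and 5.46%, and without Null_1195 13.2% and 6.85%. The share called among the genes of like intensity was not computed under these settings. A member share above that of all genes is therefore not by itself a result about the members. Quantile normalization gave medians of -0.0284 over members, 0.0012 for complex I, -0.407 for complex II and -0.155 for complex III. It gave 0.0856 for cytochrome c, -0.0084 for complex IV and -0.0466 for complex V. The mean of all probe sets gave -0.37 for complex II, with Sdha and Sdhd no longer called, sex as a term gave -0.42 for complex III, and probe sets above the median level gave -0.23 for complex IV. With 1 liver left out, the complex III median ran from -0.42 to -0.36 and that of complex V from -0.34 to -0.25. Averaging over probe sets put Sucla2 at 0.244 (adjusted p = 0.184). With probe sets whose ID marks shared sequence left out, chosen after seeing the data, Atp5c1 was 0.0858 (adjusted p = 0.701) and Uqcrq 0.39 (adjusted p = 0.153). The cause was not tested. Dim probe sets, near the array medians, limit what can be said of 8 members.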

Other observations

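In all, 10 probe sets carry several gene symbols, 1 of which would fit the members' rule, and were left out because their gene cannot be named. Of these 10, 0 were called in either direction, 4 had all null livers below all controls, and their log2 changes, null over control, ran from -0.32 to 0.41 with a median of -0.10.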
